A study of Mus musculus with 6 samples.

Results

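DOCK and VAV proteins switch on the small GTPases RAC and CDC42, which drive actin assembly at the front of a moving leukocyte. The transcripts described are 8 of the 21515 genes in the deposited table, taken by gene symbol: the leukocyte exchange factors Dock2, Dock5, Dock8, Dock10, Dock11, Vav1 and Vav3, and Elmo1, a partner protein of DOCK factors. They were chosen by name, partly because the measured FPKM of Dock10 was lower in knockout cells, so the values of all 8 in that comparison are given as a description, and no p-value is given for them. RNA was measured in 3 libraries of Clec12a knockout cells (replicates 1, 4 and 5), made with the guide T44, and in 3 libraries of control cells (replicates 6, 8 and 9), whose guide is against lacZ, a bacterial gene absent from the mouse genome. All 6 came from C57BL/6 mouse bone marrow cells immortalised by NUP98-NSD1 and NRASG12D, so both oncogenes are shared by the groups. Both guides came with Cas9 in a lentiviral vector that also carries dTomato, single cells were sorted in triplicate and expanded, and cells were held for 48 hours with interleukin-6, interleukin-3 and stem cell factor. The comparison asks how these transcripts stand in cells edited at Clec12a, which encodes an inhibitory C-type lectin receptor. It rests on 1 guide, and the labels do not say whether the 3 sorted cultures of a group are separate clones. A p-value therefore measures the spread between these libraries, which may be technical.

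An exchange factor pulls GDP out of a small GTPase so that GTP can bind. VAV proteins do so with a DH domain and are switched on when SYK, SRC or TEC family kinases phosphorylate them below immune receptors. DOCK proteins use an unrelated DHR2 domain, and the A subfamily (Dock2 and Dock5 here) works on RAC together with an ELMO partner. Dock8 belongs to the C subfamily and acts on CDC42, while Dock10 and Dock11 belong to the D subfamily, called zizimins. In mice DOCK2 is needed for lymphocyte and neutrophil migration, and DOCK8 deficiency in people causes a combined immunodeficiency.

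RefSeq promoter windows (GRCm38.p6, 250 bases before to 50 after the annotated start) were at hand for 7 of the 8 genes, all but Dock5. The 4 windows below are shown because they belong to the gene that led the choice of members and to the 3 members with the highest levels. They are given on the gene's own strand, 5′ to 3′, and capitals mark GAGGAA on either strand (TTCCTC where it lies on the other one), the core of the box that PU.1 and other ETS factors can bind. The motif was chosen with the sequences in view, as were TGTGGT (in none of the 7 windows and 16.8% of all) and TGACAG (in 2 of the 7 and 19.2% of all). Dock10 lies at chr1:80758504-80758803 on the minus strand, Vav1 at chr17:57278850-57279149 on the plus strand, Elmo1 at chr13:20090257-20090556 on the plus strand and Dock2 at chr11:34783856-34784155 on the minus strand.
Dock10: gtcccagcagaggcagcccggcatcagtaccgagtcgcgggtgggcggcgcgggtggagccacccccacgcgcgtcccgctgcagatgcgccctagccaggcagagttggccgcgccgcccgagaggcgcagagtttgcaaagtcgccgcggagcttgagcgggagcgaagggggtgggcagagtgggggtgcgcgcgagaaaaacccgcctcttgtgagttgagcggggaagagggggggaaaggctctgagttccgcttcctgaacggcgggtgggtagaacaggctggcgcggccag
Vav1: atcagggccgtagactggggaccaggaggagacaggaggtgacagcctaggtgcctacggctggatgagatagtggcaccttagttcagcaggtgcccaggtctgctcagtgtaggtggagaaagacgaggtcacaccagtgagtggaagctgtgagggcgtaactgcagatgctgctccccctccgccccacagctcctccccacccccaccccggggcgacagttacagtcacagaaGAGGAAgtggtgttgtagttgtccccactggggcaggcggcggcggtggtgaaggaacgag
Elmo1: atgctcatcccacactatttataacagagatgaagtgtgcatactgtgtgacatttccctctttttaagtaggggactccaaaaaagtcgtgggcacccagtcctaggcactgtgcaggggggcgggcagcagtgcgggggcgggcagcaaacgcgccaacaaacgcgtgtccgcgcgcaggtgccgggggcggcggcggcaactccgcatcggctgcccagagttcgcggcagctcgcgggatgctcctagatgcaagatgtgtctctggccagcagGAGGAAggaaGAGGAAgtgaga
Dock2: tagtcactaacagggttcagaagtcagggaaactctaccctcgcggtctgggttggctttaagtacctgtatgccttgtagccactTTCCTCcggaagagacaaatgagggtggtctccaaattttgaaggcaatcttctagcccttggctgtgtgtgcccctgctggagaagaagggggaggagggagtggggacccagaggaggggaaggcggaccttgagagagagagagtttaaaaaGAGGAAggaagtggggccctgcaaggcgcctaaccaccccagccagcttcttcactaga
The Vav1 window held GAGGAA at 11 bases before the start, within the longer GAGGAAGT. The Elmo1 window held it at 28 and 38 bases after the RefSeq start, the second time within GAGGAAGT. This window ends at 20090556, before the start of Elmo1 in the GENCODE annotation (20090596) used for the gene positions below. The Dock2 window held it at 9 bases before the start and, on the other strand, at 164 before it. The Dock10 window held none, nor did those of Dock8, Dock11 and Vav3. A single window per gene was read, so any other start of these genes was not examined. Of 32851 windows of this length in the table, 28.3% held GAGGAA and 3.20% held GAGGAAGT on either strand, and GAGGAAGT always contains GAGGAA. No binding was measured, and a match is a description of letters only.

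Clec12a itself, the target, stood at 170, 129 and 94.5 FPKM in knockout libraries, against 157, 246 and 280 FPKM in controls. FPKM is a fragment count divided by transcript length and by library depth. The groups overlapped (log2 fold change -0.79, SE 0.29, adjusted p = 0.130 by limma; exact two-sided permutation p = 0.2, where 0.1 is the smallest for 3 against 3 libraries). A small edit need not lower the FPKM of a whole gene, so this level does not check the labels. Spi1, which encodes the myeloid factor PU.1, was found at 212 to 263 FPKM in knockout libraries, against 190.5 to 265 FPKM in controls. The 7 T cell markers summed to 1.93 to 2.88 FPKM in knockout libraries, against 0.268 to 0.685 FPKM in controls. Lck (1.35 to 2.13 FPKM in knockout and 0.251 to 0.650 FPKM in control libraries) and Cd3d (0.308 to 0.659 FPKM in knockout and 0 to 0.124 FPKM in control libraries) made up most of this, and the other 5 (Cd3e, Cd3g, Cd4, Cd8a and Zap70) were at no more than 0.0430 FPKM. The 4 B cell markers summed to 0.0943 to 0.250 FPKM in knockout libraries, against 0.0156 to 0.0766 FPKM in controls. In whole cultures, fewer cells of a type and less RNA per cell cannot be told apart.

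Of the 8 transcripts, 7 had lower values in knockout cells and Vav3 had a higher one. For 6 of them (Dock2, Dock8, Dock10, Dock11, Elmo1 and Vav1) all knockout libraries lay below all controls, which held for 21.8% of the 9830 genes tested, and Dock5 and Vav3 overlapped. The median log2 fold change of the 8, on the log2(FPKM + 1) scale, was -0.82, against -0.06 over all genes tested, and 54.0% of all genes had a lower value. In the limma fit across all genes, an adjusted p of 0.05 was passed by 1.90% of all genes tested, made up of 0.519% with lower values in knockout cells and 1.38% with higher ones. Since Dock10 in this contrast helped to choose the members, they are not set against that threshold, and nothing is read from the counts above.

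Some markers of myeloid maturation also had values that separated the groups. Ly6g was at 117.5, 74.0 and 33.3 FPKM in knockout libraries, against 1.92, 6.48 and 8.05 FPKM in controls. Retnlg was at 27.7, 10.7 and 16.5 FPKM in knockout libraries, against 0.780, 0.641 and 1.64 FPKM in controls. These were the 2 of 6 mature neutrophil markers with all knockout libraries above all controls, which held for 14.5% of the 9830 genes tested. The rest overlapped: Cxcr2 and Camp averaged higher in knockout libraries, and Mmp8 and Ltf averaged lower. The summed level of the 6 overlapped too (127 to 345 FPKM in knockout and 85.3 to 232 FPKM in control libraries). Mpo, a granule enzyme of progenitors, was at 0.289, 1.20 and 9.36 FPKM in knockout libraries, against 455, 737 and 10.2 FPKM in controls. It was the 1 of 9 myeloid progenitor markers with all knockout libraries below all controls, which held for 21.8% of the genes tested. The rest overlapped: Elane, Prtn3, Cebpa and Spi1 averaged higher in knockout libraries, and Ptprc, Ctsg, Kit and Csf3r averaged lower. That list's sum overlapped too (3669 to 8777 FPKM in knockout and 2330 to 7016 FPKM in control libraries). The summed eosinophil markers (2.69 to 3.44 FPKM in knockout and 0.913 to 1.55 FPKM in control libraries) and erythroid markers (0.798 to 2.23 FPKM in knockout and 0.439 to 0.503 FPKM in control libraries) were low and did not overlap. The part of these differences in the members' values was not tested.

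**Figure D1:**
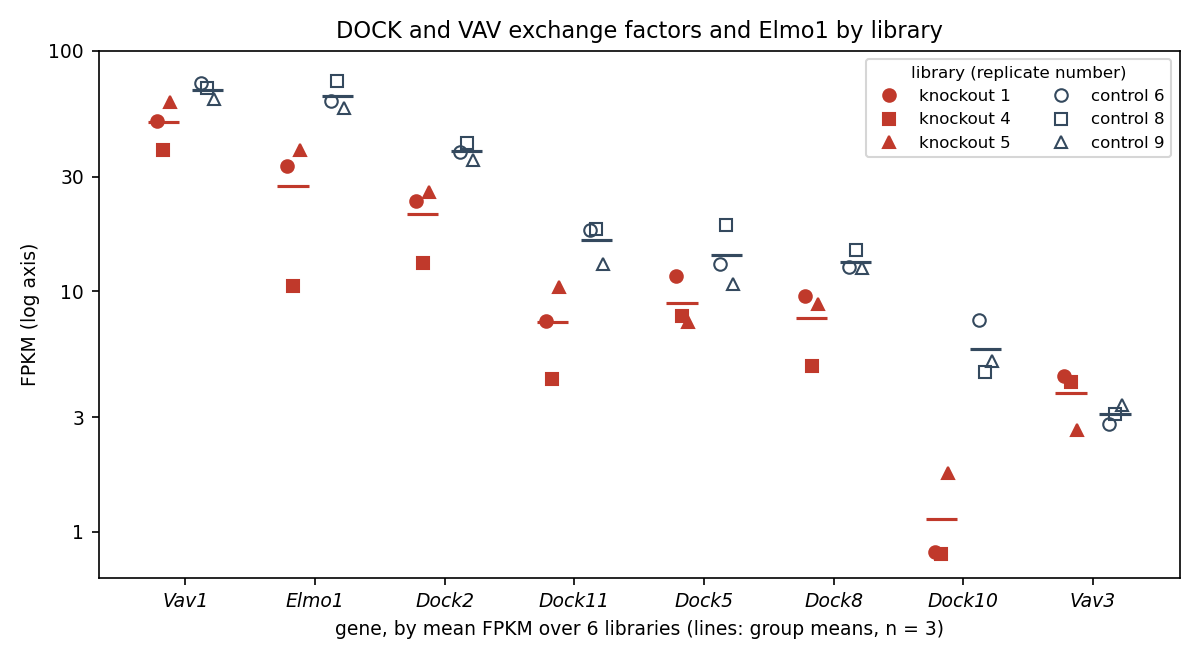
FPKM (log axis) of the 8 genes in each library, knockout in filled red and control in open blue symbols, with lines at the group means (n = 3). Dock10 lies between 0.808 and 1.75 FPKM in knockout libraries and between 4.60 and 7.60 FPKM in controls, and knockout replicate 4 is the lowest library for 6 of the 8 genes.

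Dock10 (chromosome 1, 80501073 to 80758527, GRCm38; 257 kb), a D subfamily factor that acts on CDC42 and RAC, stood furthest apart. Dock10 was measured at 0.828, 0.808 and 1.75 FPKM in knockout replicates 1, 4 and 5. The controls, replicates 6, 8 and 9, had 7.60, 4.60 and 5.13 FPKM. The lowest control was thus above the highest knockout library, and the group means were 1.13 ± 0.540 FPKM in knockout and 5.77 ± 1.60 FPKM in control cells (SD, n = 3 each), a ratio of 19.6%. On the log2 scale the difference was -1.67 (SE 0.26, 95% interval -2.27 to -1.07) at a pseudocount of 1, which understates it for so low a gene: with a pseudocount of 0.1 it was -2.31 and with 0.01 it was -2.41. An estimate of sequencing depth, with the longest transcript (7198 nt) as the length, puts between 296 and 3335 fragments on the gene in a library. The length behind the FPKM is unknown, and the exons of Dock10 cover 18267 bases, which would give higher counts. Dock10 entered the fit with 4 libraries at 1 FPKM or more, the 3 controls and knockout replicate 5. Leaving out single libraries gave log2 fold changes of -1.87 to -1.49.

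Dock11 (X chromosome, 35888832 to 36076562; 188 kb), the other D subfamily member and an activator of CDC42, was at 7.56, 4.33 and 10.4 FPKM in knockout libraries, against 17.9, 18.1 and 13.0 FPKM in controls. The groups did not overlap, and the ratio of the means was 45.6% (log2 fold change -1.09, SE 0.30, 95% interval -1.79 to -0.40). Dock10 amounted to 10.96%, 18.7% and 16.8% of the Dock11 level in knockout libraries and to 42.4%, 25.4% and 39.5% in controls. The share was thus lower in each knockout library than in any control.

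Elmo1 (chromosome 13, 20090596 to 20608353; 518 kb) encodes the scaffold that holds A subfamily DOCK proteins open for RAC. Elmo1 levels were 33.1, 10.5 and 38.7 FPKM in knockout libraries, against 61.7, 75.2 and 58.0 FPKM in controls. Its spread was wide in the knockout group (27.4 ± 15.0 FPKM in knockout, 65.0 ± 9.05 FPKM in control cells, SD, n = 3 each), mainly through replicate 4. On the log2 scale the difference was -1.39 (SE 0.42, 95% interval -2.36 to -0.43), and without knockout replicate 4 it was -0.83. Its exons share 3.20% of their bases with Gm32036 on the opposite strand, and the use of strand in counting is unknown.

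Dock2 (chromosome 11, 34226815 to 34783892; 557 kb), the main RAC activator of leukocytes and a partner of ELMO1, was at 23.7, 13.1 and 25.9 FPKM in knockout libraries. Controls were at 38.0, 41.3 and 35.1 FPKM. All controls were above all knockout libraries, and the ratio of the means was 54.9% (log2 fold change -0.89, SE 0.26, 95% interval -1.49 to -0.29). Its exons share 4.03% of their bases with 4930403D09Rik on the opposite strand. Dock5 (chromosome 14, 67752135 to 67933442), a RAC activator of the same subfamily, was at 11.6, 7.87 and 7.42 FPKM in knockout libraries, against 13.0, 18.8 and 10.7 FPKM in controls. Knockout replicate 1 lay above control replicate 9, so the groups overlapped (log2 fold change -0.60, SE 0.27, 95% interval -1.21 to 0.02).

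Dock8 (chromosome 19, 24999534 to 25202432), the CDC42 activator that keeps migrating leukocytes intact in tight spaces, was at 9.54, 4.91 and 8.82 FPKM in knockout libraries, against 12.6, 14.8 and 12.4 FPKM in controls. The groups did not overlap, and the ratio of the means was 58.4% (log2 fold change -0.75, SE 0.26, 95% interval -1.35 to -0.14).

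Vav1 (chromosome 17, 57279100 to 57328031; 49 kb), the VAV factor of blood cells, had the highest level of the 8. Its levels were 51.2, 38.7 and 61.3 FPKM in knockout libraries, against 73.7, 70.2 and 62.8 FPKM in controls. Knockout replicate 5 came close to control replicate 9, and the difference on the log2 scale was -0.47 (SE 0.21, 95% interval -0.94 to 0.01). Vav3 (chromosome 3, 109340653 to 109685698), a more widely expressed VAV factor, was at 4.47, 4.22 and 2.66 FPKM in knockout libraries, against 2.82, 3.08 and 3.35 FPKM in controls. Its groups overlapped through knockout replicate 5, the lowest of all 6 libraries (log2 fold change 0.21, SE 0.23, 95% interval -0.31 to 0.73).

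Over all 6 libraries the levels ran from Vav1 (mean 59.6 FPKM) through Elmo1 (46.2), Dock2 (29.5), Dock11 (11.9), Dock5 (11.6), Dock8 (10.5) and Dock10 (3.45) to Vav3 (3.43). Dock2 exceeded Dock11 in 6 of 6 libraries (mean log2 difference 1.29 ± 0.18, SD), with an exact sign-flip p of 0.0312, the smallest that 6 libraries allow. The adjusted p was 0.109 over the 7 neighbouring pairs, which follow the ranking by these same means and include those with Dock10. A single pair at the smallest p cannot pass over 7 pairs, so the adjusted p does not decide the order of Dock2 and Dock11. Dock8 exceeded Dock10 in 6 of 6 (1.56 ± 0.64), given with no p because the level of Dock10 helped to choose the genes. Vav1 exceeded Elmo1 in 5 of 6 libraries and Elmo1 exceeded Dock2 in 5 of 6 (exact p = 0.0625 and adjusted p = 0.109 for each). Dock11, Dock5 and Dock8 could not be ordered beyond their spread (exact sign-flip test, adjusted p = 0.844 and 0.481 for the neighbouring pairs). The order of the means differed between the groups: Dock11 averaged less than Dock5 and Dock8 in knockout libraries (7.44, 8.95 and 7.76 FPKM) and more than both in controls (16.3, 14.2 and 13.3 FPKM). This difference was not tested, and not every library followed it. In knockout replicate 5 Dock11 (10.4 FPKM) was above Dock5 (7.42) and Dock8 (8.82), and in control replicate 8 it (18.1) was below Dock5 (18.8). Dock10 was below Vav3 in all 3 knockout libraries and above it in all 3 controls.

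The members have long transcripts, and length went with the difference between the groups. The longest annotated transcript of 6 of the 8 (5464 nt for Elmo1 to 9988 nt for Dock5) falls in the longest of 5 equal length bins of all genes tested (5083 nt or more), that of Vav3 (5019 nt) in bin 4 and that of Vav1 (2963 nt) in bin 3. Over all genes the median log2 fold change was 0.31 in the shortest bin and -0.29 in the longest. In the longest bin 34.2% of genes had all knockout libraries below all controls, against 4.85% in the shortest. Knockout replicate 4 stood apart in this: its median deviation from the gene means was -0.32 in the longest bin and 0.44 in the shortest. In the longest bin the other knockout libraries were at -0.02 and -0.11, and the controls at 0.18, 0.16 and 0.12. The median deviation of the 8 members was -0.20, -0.96 and -0.13 in the knockout libraries, against 0.39, 0.57 and 0.27 in the controls. The part of length and of knockout replicate 4 in the members' values was not tested beyond the values that follow.

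**Figure D2:**
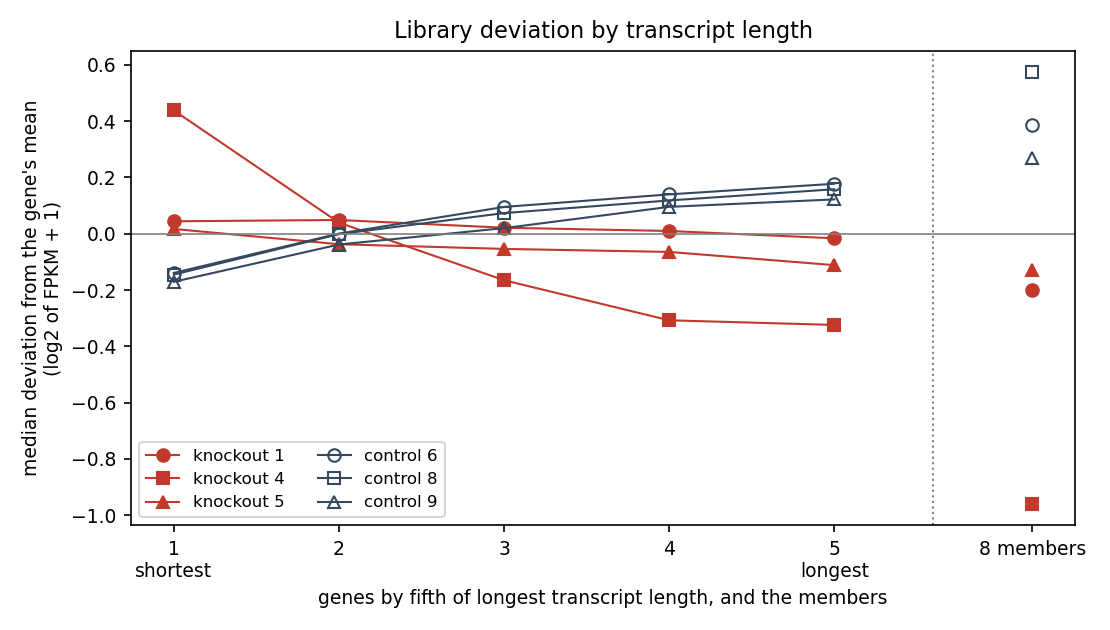
Median deviation of each library from the gene means (log2 of FPKM + 1) for genes in 5 equal bins of longest transcript length, and for the 8 members at the right. Knockout libraries are filled red and controls open blue: controls run from below 0 in the shortest bin to above 0 in the longest, and knockout replicate 4 runs the other way, to -0.32, with the members at -0.96.

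With each library corrected for transcript length and GC content, the members' median deviation was -0.25, -0.65 and -0.03 in the knockout libraries, against 0.33, 0.45 and 0.14 in the controls. The median log2 fold change of the 8 was then -0.58, with 7 still lower and Vav3 higher. Dock10 was at -1.37 (SE 0.25), Elmo1 at -1.14, Dock11 at -0.73, Dock2 at -0.64, Dock8 at -0.52, Vav1 at -0.48, Dock5 at -0.34 and Vav3 at 0.46. Without knockout replicate 4 and with no such correction, the median of the 8 was -0.56. Dock10 was then at -1.57, Elmo1 at -0.83, Dock11 at -0.79, Dock2 at -0.60, Dock5 at -0.53, Dock8 at -0.49, Vav1 at -0.29 and Vav3 at 0.13. The direction of each of the 8 was thus kept under both.

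**Figure D3:**
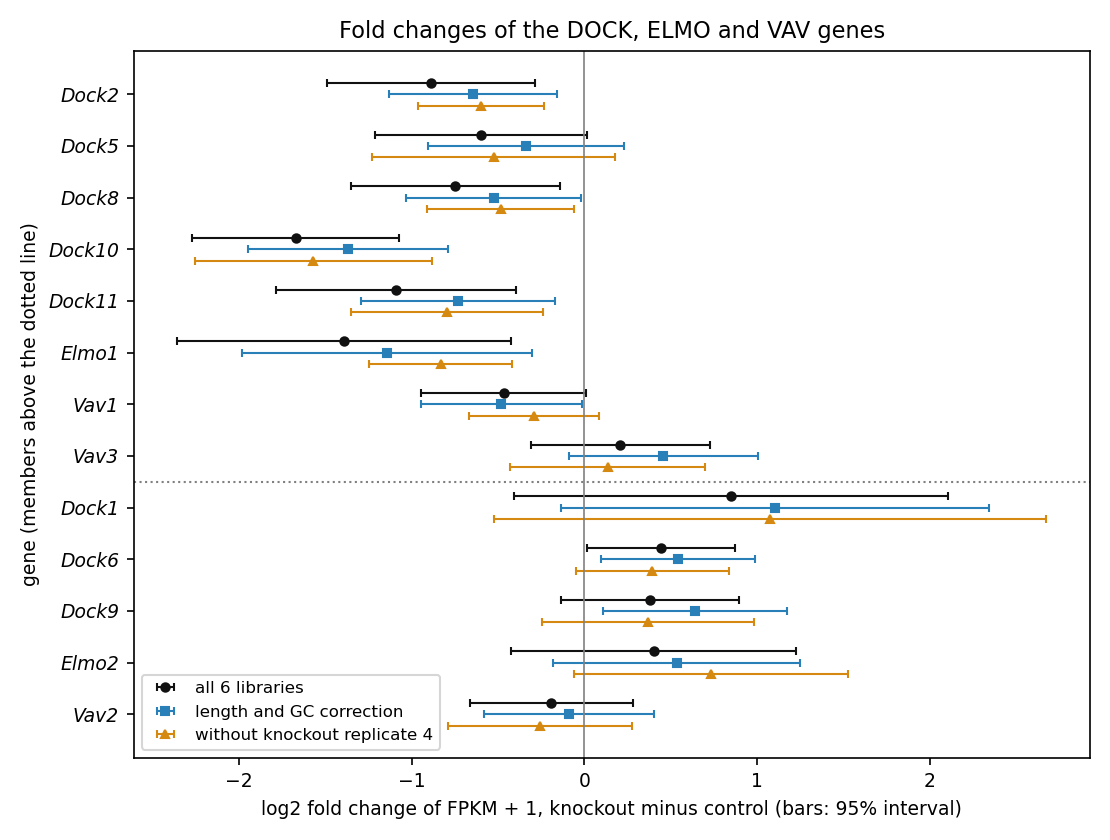
Log2 fold change of FPKM + 1, knockout minus control, with 95% intervals, for the 8 members (above the dotted line) and 5 further DOCK, ELMO and VAV genes. Each gene has the fit of all 6 libraries, the fit after correction for length and GC content, and the fit without knockout replicate 4. Dock10 lies at -1.67, -1.37 and -1.57.

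Of 8 further DOCK, ELMO and VAV genes, 5 passed the filter on low values, and 1 of those had a lower and 4 had higher values in knockout cells, with a median log2 fold change of 0.40. Over all genes tested 54.0% had lower and 46.0% had higher values. None of the 5 passed the threshold. At an unadjusted p under 0.05 (limma) 1 was higher, which 12.0% of all genes reached. The median longest transcript of these 5 is 6807 nt, against 6537 nt for the members. Elmo2, the ELMO scaffold found in most tissues, was at 99.4, 37.1 and 56.5 FPKM in knockout libraries, against 35.7, 39.2 and 63.8 FPKM in controls (adjusted p = 0.478, limma). Dock6, a C subfamily factor, was at 2.26, 2.74 and 2.47 FPKM in knockout libraries, against 1.46, 1.45 and 1.77 FPKM in controls (log2 fold change 0.45, SE 0.19, adjusted p = 0.168, limma). All its knockout libraries lay above all controls, which held for 14.5% of all genes tested. Dock9, the third member of the D subfamily, was at 1.60 to 1.68 FPKM in knockout libraries, against 1.08, 1.57 and 0.557 FPKM in controls (adjusted p = 0.292, limma). Dock1, the founding A subfamily member, was at 4.52, 2.28 and 4.01 FPKM in knockout libraries, against 4.71 and 1.72 FPKM in controls, with control replicate 9 listed at 0. Vav2, a VAV factor of many tissues, overlapped between the groups (1.02 ± 0.226 FPKM in knockout and 1.32 ± 0.385 FPKM in control cells, SD, n = 3 each). Dock3 (at most 1.47 FPKM), Dock4 (at most 0.536 FPKM) and Elmo3 (at most 0.591 FPKM) did not pass the filter.

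Of 13 GTPases of the family that includes RAC and CDC42, 11 had higher values, as 46.0% of all genes did, with a median log2 fold change of 0.37, or 0.23 without knockout replicate 4. The 1 that rose, as 1.38% of all genes did, was Rnd1, an atypical GTPase that stays bound to GTP. Rnd1 measured 28.7, 34.3 and 20.6 FPKM in knockout libraries, against 8.79, 13.4 and 9.74 FPKM in controls (log2 fold change 1.30, SE 0.25, adjusted p = 0.0458, limma). The substrates of the members were chosen for their role, outside the rule for named genes. Rac2, the RAC of blood cells, was at 421, 443 and 363 FPKM in knockout libraries, against 313, 279 and 321 FPKM in controls (adjusted p = 0.185, limma). Rac1 (23.8 ± 9.54 FPKM in knockout and 15.4 ± 1.97 FPKM in control cells, SD, n = 3 each; adjusted p = 0.245, limma) and Cdc42 (327 ± 39.2 FPKM in knockout and 318 ± 43.3 FPKM in control cells; adjusted p = 0.904, limma) overlapped. Rhog, which recruits ELMO, was at 76.3, 122 and 80.7 FPKM in knockout libraries, against 60.6, 57.7 and 60.7 FPKM in controls (adjusted p = 0.126, limma). With a median longest transcript of 4159 nt, this list is shorter than the members but longer than the 3292 nt of all genes tested.

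Of 22 tested GTPase-activating proteins and inhibitors, 1 fell: Gmip, which switches off RHOA, at 22.1, 21.4 and 24.5 FPKM in knockout libraries and 48.3, 38.7 and 45.3 FPKM in controls (log2 fold change -0.92, SE 0.18, adjusted p = 0.0462, limma). Of 24 kinases, adaptors and partners upstream of VAV and DOCK, 19 had lower values, as 54.0% of all genes did, and the median log2 fold change was -0.47. With the length and GC correction 16 were lower (median -0.34) and without knockout replicate 4 it was 17 (median -0.33). The 1 that passed rose. It was Lcp2, which encodes SLP-76, the adaptor that docks VAV1 below immune receptors: 185, 139 and 179 FPKM in knockout libraries, against 82.2, 87.5 and 84.3 FPKM in controls (log2 fold change 0.97, SE 0.18, adjusted p = 0.0444, limma). Without any 1 library, and so with fewer samples, Gmip had adjusted p from 0.0614 to 0.172 and Lcp2 from 0.0528 to 0.198. Rnd1 had from 0.0453, without knockout replicate 5, to 0.128. None of 23 tested exchange factors of other families passed (limma; 7 lower and 1 higher at an unadjusted p under 0.05, which 15.9% and 12.0% of all genes reached). Their median was -0.27, or -0.16 with the length and GC correction and -0.17 without knockout replicate 4. The 2 with the highest levels were Def6, a factor that binds RAC, at 67.2 ± 12.6 FPKM in knockout and 70.4 ± 8.83 FPKM in control cells, and Arhgef6, or alpha-PIX, at 40.4 ± 13.7 FPKM in knockout and 69.4 ± 8.40 FPKM in control cells (SD, n = 3 each; adjusted p = 0.826 and 0.113, limma). None of 22 tested effectors passed either (limma; 2 lower and 1 higher at an unadjusted p under 0.05). Their median of 0.15 was gone without knockout replicate 4 (-0.0032, with 11 of 22 lower). The 2 with the highest levels were Brk1, a subunit of the WAVE complex that RAC opens, at 139 ± 38.2 FPKM in knockout and 116 ± 5.13 FPKM in control cells, and Cdc42se1, a CDC42-binding protein, at 89.5 ± 10.5 FPKM in knockout and 76.9 ± 23.8 FPKM in control cells (SD, n = 3 each; adjusted p = 0.525 and 0.496, limma).

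**Figure D4:**
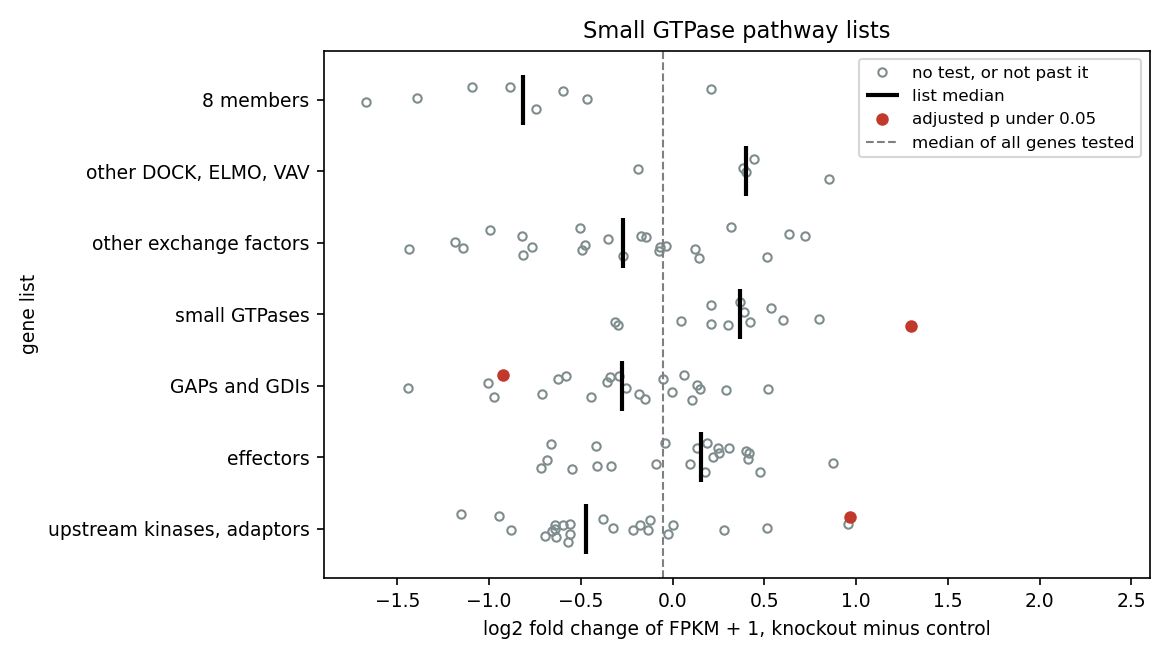
Log2 fold change of FPKM + 1, knockout minus control, of each tested gene in the members and the 6 pathway lists, with list medians as bars and the median of all genes tested as a dashed line. The members, with Dock10 at -1.67, are shown with no test. Filled points among the other lists passed an adjusted p of 0.05: Rnd1 at 1.30, Gmip at -0.92 and Lcp2 at 0.97.

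The genes whose pattern over the 6 libraries was most like that of Dock10, by Pearson's r of log2(FPKM + 1), were Fnip2 (0.996), Tcirg1 (0.990), Nisch (0.990), Gmip (0.987) and Zfp866 (0.985). Each shares with Dock10 the gap between the groups and a level in knockout replicate 5 above that of replicates 1 and 4, and with 6 libraries and 9830 genes such values are a description only. Fnip2, a folliculin-binding protein gene, was at 0.988, 0.985 and 1.89 FPKM in knockout libraries, against 4.80, 3.26 and 3.40 FPKM in controls. Tcirg1, a subunit of the proton pump of lysosomes, had 50.3 to 66.8 FPKM in knockout libraries, against 89.7 to 123 FPKM in controls.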

How the data were processed

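The authors deposited 1 table of FPKM by gene symbol, 1 column per library. STAR 2.5.2b, FastQC and mm10 are named per the submitters' processing notes. Counting tool, annotation and strand: not given in the sources used here. Library totals were 590211 to 699113 FPKM in knockout libraries and 534440 to 554534 in controls. Depth was estimated from 4136 genes with 1 transcript, whose low values should be whole multiples of 1 fragment: 33700000 to 61000000 fragments per library. Between 62.8% and 69.9% of these values were within 0.1 of whole (20% by chance), so reads were not recovered and no count test was run.

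Genes reaching 1 FPKM in 3 or more libraries (9830, all 8 members among them) were tested as log2(FPKM + 1) with limma 3.58.1 in R 4.3.3 (intensity trend, two-sided, Benjamini-Hochberg over all genes, threshold 0.05). The fit was tested on simulated data. Symbols were matched to GENCODE M21 (GRCm38): 21414 directly, 1 through a synonym, and 100 had no match. The length and GC correction used splines with 4 degrees of freedom on the longest transcript (9792 genes).

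Members, lists, tests and settings were chosen with earlier results of these data known. Named genes are the members, Clec12a, 8 further DOCK, ELMO and VAV genes (some genes of the lists are not reported here), up to 4 passing genes per list or, if none, its 2 genes of highest mean, and the 5 most like Dock10.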

Additional observations from a re-analysis of the deposited data

How the results depend on the processing

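The 187 genes changed over the whole table became 122 with a pseudocount of 0.01, 23 with no filter, 97 when a mean of 5 FPKM was required and 120 with equal totals, while array weights gave 4154 (1886 higher and 2268 lower) and an adjusted p under 0.1 gave 1106. The split was 136 higher to 51 lower, and 71 to 49 with equal totals. Leaving out 1 library gave 20 (without knockout replicate 4) to 197 (without control replicate 9). Each of these fits has fewer samples, and the cause of the differences in count was not tested. The median log2 fold change of the members was -0.96 to -0.56 without single libraries, and each member kept its direction in each setting that tested it. Equal totals moved the median of all genes to -0.24 and that of the members to -1.005. A mean of 5 FPKM removed Dock10 and Vav3. With array weights Clec12a passed (-0.66). Of the calls in the pathway, Rnd1 was lost in 11 of 17 settings, Gmip in 12 and Lcp2 in 10, each with its direction kept. Directions turned for genes near 0. Def6 was at -0.18 to 0.0832 without single libraries. Brk1 was at -0.0700 with array weights and -0.17 with the correction. The order of Dock11 and Dock5 turned without knockout replicates 1 or 4 (0.07 and 0.10; -0.13 to 0.10 without single libraries), as did that of Dock10 and Vav3 (-0.51 to 0.0362). No paired analysis was possible because the groups share no replicate number. The array-weight count rests on weights estimated from 6 libraries.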

Other observations

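Within the summed FPKM of the 8 genes (142, 84.4 and 157 in knockout replicates 1, 4 and 5, and 227, 246 and 201 in control replicates 6, 8 and 9), the share of Dock2 varied little, at 15.6% to 16.7% in knockout libraries, against 16.7% to 17.5% in controls. Vav1 made up 36.0% to 45.8% in knockout libraries and 28.5% to 32.4% in controls. Elmo1 made up 12.4% to 24.7% in knockout libraries and 27.2% to 30.5% in controls, with its lowest share in knockout replicate 4. Dock10 made up 0.583% to 1.12% in knockout libraries and 1.87% to 3.34% in controls.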
